A study of Mus musculus with 6 samples.

Results

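The Ikaros family of transcription factors has 5 genes in the mouse, Ikzf2 (Helios), Ikzf1 (Ikaros), Ikzf3 (Aiolos), Ikzf4 (Eos) and Ikzf5 (Pegasus). They were taken by symbol from the 55450 genes of the deposited table, and all 5 were among the 13470 genes with enough counts to be tested. Polyadenylated RNA had been sequenced from naive CD8 T cells of lymph nodes, sorted for lack of Ly6C and CXCR3, which are carried by memory-like CD8 T cells. There were 3 CD103KO libraries from Itgae-/- mice, which lack the integrin alpha E chain CD103, and 3 WT libraries from C57BL/6 mice, and the comparison asks how these resting cells differ without CD103. Age, the knockout allele and whether each library came from its own animal are not given in the labels, so the spread between libraries may be partly technical.

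Ikaros family proteins carry zinc fingers, small folds in which cysteines and histidines hold a zinc ion. The fingers near the start of the protein bind DNA, and a pair at its end joins family members into dimers, so that the members can act together on shared sites. Ikaros, the founding member, is needed for lymphocyte development, and much of its repression runs through the NuRD chromatin remodelling complex. Aiolos acts mainly in maturing B cells and in some T cell subsets. Helios is best known from regulatory T cells and from T cells that met strong self-antigen in the thymus, Eos works with Foxp3 in regulatory T cells, and Pegasus is the most divergent member.

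The family was chosen by the levels and fold changes of these same 6 libraries, CD103KO against WT, in which Helios stood out, so the differences of its members between the groups are descriptions without a test. Total counts were 68292475 to 76044311 in CD103KO and 74438908 to 94347034 in WT. Itgae was at 61.1 to 67.9 CPM (counts scaled to the size of the library) in CD103KO and 460 to 495 CPM in WT. One split runs across the groups. Xist was at 0 to 2 counts in the CD103KO libraries and at 1 count in WT replicate 3, and these 4 libraries carried the Y-linked Ddx3y at 47.8 to 56.2 CPM. Xist counts were instead 5012 in WT replicate 1 and 7628 in WT replicate 2, both without any Ddx3y count. Differences are therefore also given from a fit with a term for Xist reads, which in effect sets CD103KO against WT replicate 3. The cells carried the defining CD8 T cell transcripts, with Cd8a at 1479 ± 24.9 CPM in CD103KO and 1452 ± 13.4 CPM in WT (SD, n = 3 each).

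The coding sequence of the second zinc finger is shown for each member because it belongs to the DNA-binding set and separates Pegasus from the rest. The sequences were read from GENCODE M21 transcripts (GRCm38) and run 5′ to 3′ on the coding strand. Capitals mark the codons of the 2 cysteines and 2 histidines that hold the zinc ion.
Ikzf2, chr1:69570581-69570643, minus strand: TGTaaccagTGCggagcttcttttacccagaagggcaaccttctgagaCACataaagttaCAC
Ikzf1, chr11:11754024-11754086, plus strand: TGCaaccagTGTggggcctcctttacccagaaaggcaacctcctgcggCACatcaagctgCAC
Ikzf3, chr11:98488940-98489002, minus strand: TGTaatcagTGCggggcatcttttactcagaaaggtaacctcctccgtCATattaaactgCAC
Ikzf4, chr10:128640229-128640291, minus strand: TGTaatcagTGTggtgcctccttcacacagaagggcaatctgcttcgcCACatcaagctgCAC
Ikzf5, chr7:131392501-131392563, minus strand: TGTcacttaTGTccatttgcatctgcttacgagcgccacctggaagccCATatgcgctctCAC

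Over these 63 bases Helios was identical to Ikaros at 81.0% of positions, and to Aiolos and to Eos at 76.2% each. Helios and Pegasus shared 47.6%, and Pegasus shared 41.3% with Ikaros, 41.3% with Aiolos and 42.9% with Eos. Fingers were matched by their order, and Pegasus has fewer of them before the last pair. Its second finger may therefore not be the counterpart of the second finger of the others.

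The last finger, from the dimer-forming pair, is shown because there Pegasus is closer to the rest than in the second finger, though still the most distant member. Capitals again mark the zinc-holding codons.
Ikzf2, chr1:69538780-69538848, minus strand: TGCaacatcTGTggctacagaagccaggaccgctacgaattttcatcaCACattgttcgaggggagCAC
Ikzf1, chr11:11769495-11769563, plus strand: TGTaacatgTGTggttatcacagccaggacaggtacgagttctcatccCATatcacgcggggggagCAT
Ikzf3, chr11:98467004-98467072, minus strand: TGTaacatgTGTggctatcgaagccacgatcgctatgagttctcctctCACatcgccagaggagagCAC
Ikzf4, chr10:128634060-128634128, minus strand: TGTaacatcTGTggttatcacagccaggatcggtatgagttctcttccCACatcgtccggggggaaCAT
Ikzf5, chr7:131391649-131391717, minus strand: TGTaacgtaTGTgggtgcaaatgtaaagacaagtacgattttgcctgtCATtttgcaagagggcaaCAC

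In this stretch of 69 bases Pegasus was identical to Helios at 63.8% of positions, to Ikaros and to Aiolos at 60.9% each and to Eos at 56.5%. Helios shared 72.5% with Ikaros, 76.8% with Aiolos and 73.9% with Eos. The pattern of 2 cysteines, 12 residues and a pair of histidines (or a final cysteine) was found 29 times in the longest annotated coding sequences, 6 times in each member but Pegasus, which had 5. Each of the 29 lay within 1 exon. The longest run of bases shared exactly by transcripts of any pair of members was 32 bases, between Helios and Eos. No stretch of 75 bases was common to transcripts of any pair.

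**Figure D1:**
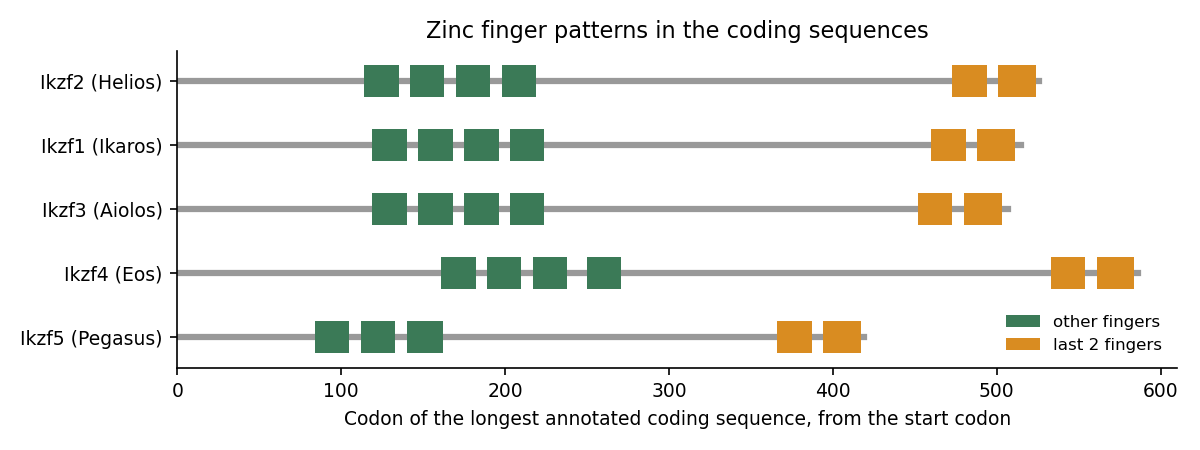
Positions of the zinc finger patterns in the longest annotated coding sequence of each member, drawn to scale in codons from the start codon (x axis). Boxes are fingers, with the last 2 of each member in orange. Helios, Ikaros, Aiolos and Eos have 4 fingers before the last pair, and Pegasus has 3.

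Helios (Ikzf2, ENSMUSG00000025997.13, chr1:69531214-69687245, minus strand, GRCm38) was at 11.6, 13.1 and 13.7 CPM in CD103KO replicates 1, 2 and 3, against 10.3, 10.2 and 9.37 CPM in WT replicates 1, 2 and 3. Every CD103KO library lay above every WT library, with the smallest gap between CD103KO replicate 1 and WT replicate 1. The means were 12.8 ± 1.08 CPM in CD103KO and 9.95 ± 0.507 CPM in WT (SD, n = 3 each), 1.28 times as much in CD103KO (log2 fold change 0.36, SE 0.08). These levels rest on 850 to 1033 counts per library in CD103KO and 745 to 976 in WT. Counting error alone would give a spread of 3.29% of the mean in CD103KO and 3.47% in WT, and the libraries spread by 8.46% and 5.10% in those groups. Among WT libraries replicate 3, the one with 1 Xist count, had the lowest Helios level. With the Xist term the log2 fold change was 0.45 (SE 0.12). In bulk RNA a larger share of Helios-expressing cells and more Helios RNA in each cell cannot be told apart.

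Ikaros (Ikzf1, ENSMUSG00000018654.17, chr11:11685003-11772926, plus strand) was by far the most abundant member. Its level was 1042, 958 and 961 CPM in CD103KO replicates 1, 2 and 3, against 1016, 1071 and 1013 CPM in WT replicates 1, 2 and 3. CD103KO replicate 1 lay among the WT libraries, so the groups overlapped. The log2 fold change was -0.07 (SE 0.05), and -0.04 (SE 0.06) with the Xist term.

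Aiolos (Ikzf3, ENSMUSG00000018168.8, chr11:98464902-98546031, minus strand) was at 193, 190.4 and 173 CPM in CD103KO replicates 1, 2 and 3, against 184, 191 and 175 CPM in WT replicates 1, 2 and 3. The ranges of the groups nearly coincided, and replicate 3 was the lowest library of both. Its log2 fold change was 0.01 (SE 0.05), and 0.08 (SE 0.07) with the Xist term. Ikaros and Aiolos lie on the chromosome of Itgae, 61.3 and 25.3 Mb from it, while the other 3 members are on other chromosomes.

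Eos (Ikzf4, ENSMUSG00000002578.17, chr10:128630843-128645991, minus strand) was the rarest member in CPM. It was at 5.22, 4.24 and 4.33 CPM in CD103KO replicates 1, 2 and 3, against 5.30, 4.96 and 4.91 CPM in WT replicates 1, 2 and 3. CD103KO replicates 2 and 3 lay below all WT libraries and replicate 1 lay among them. The log2 fold change was -0.14 (SE 0.11), which was -0.24 without CD103KO replicate 1 and -0.09 (SE 0.16) with the Xist term. Counting error is larger here, at 5.48% of the mean in CD103KO and 4.88% in WT, from 289 to 383 counts per library in CD103KO and 390 to 475 in WT.

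Pegasus (Ikzf5, ENSMUSG00000040167.16, chr7:131388652-131410521, minus strand) was at 47.0, 41.4 and 43.8 CPM in CD103KO replicates 1, 2 and 3, against 42.4, 44.9 and 46.6 CPM in WT replicates 1, 2 and 3. The CD103KO range enclosed the WT range. Its log2 fold change was -0.02 (SE 0.06), and -0.08 (SE 0.08) with the Xist term. Within CD103KO, replicate 1 had the highest level of Ikaros, Aiolos, Eos and Pegasus and the lowest of Helios.

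**Figure D2:**
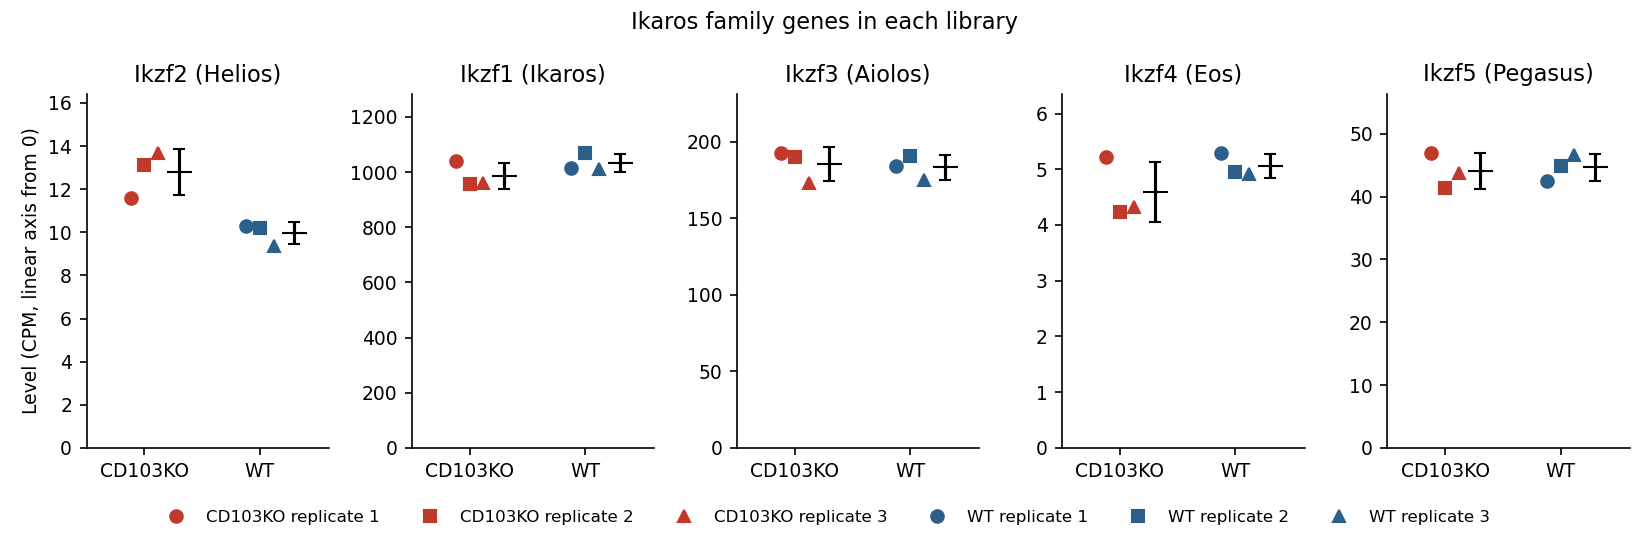
Level of each member in CPM (y axes, linear from 0) in every CD103KO and WT library. Coloured points are libraries and the black mark with bars is the mean ± SD of 3. Helios is the member whose groups do not overlap, at 11.6 to 13.7 CPM in CD103KO and 9.37 to 10.3 CPM in WT.

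The CD103KO and WT values were fully apart for 1 of the 5 members, Helios, which was higher in CD103KO. Among all tested genes 14.2% were apart in this way, 6.82% higher and 7.36% lower in CD103KO. EdgeR's quasi-likelihood test called 0 of the 5 at an adjusted p of 0.05, against 0.223% of tested genes (0.141% higher and 0.0817% lower in CD103KO), and 1, Helios, had an unadjusted p under 0.05, against 8.73% (4.53% higher and 4.2% lower). DESeq2 called 1, again Helios, where 0.822% of the genes it tested were called, and limma-voom called 0, with 0.215% called. Since this contrast was in view when the family was chosen, nothing is read from these counts. The median log2 fold change of the 5 was -0.02, against 0.00 over all tested genes.

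Helios kept a positive log2 fold change under all 15 processing alternatives, from 0.31 to 0.45. The lowest came without CD103KO replicate 3, its highest library, and the highest with the Xist term and with only the libraries under 1 CPM of Xist. Ikaros (-0.11 to -0.04) and Eos (-0.24 to -0.09) stayed negative under all 15. Aiolos (-0.02 to 0.08) and Pegasus (-0.08 to 0.02) took either sign. Since the Helios groups did not overlap, leaving out libraries could not reverse its sign, and nothing is read from its constancy.

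**Figure D3:**
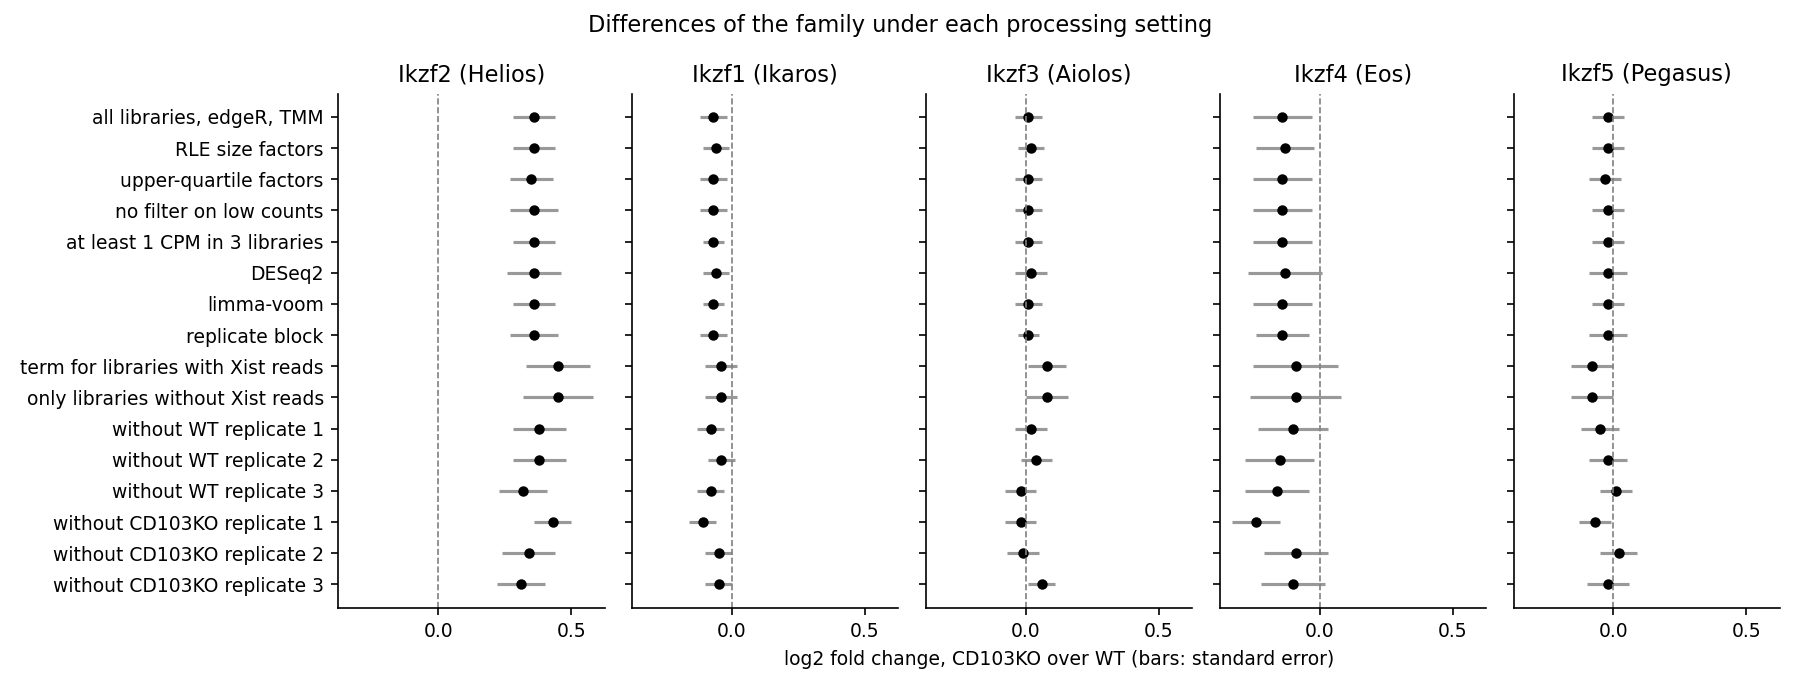
Log2 fold change of each member, CD103KO over WT (x axis), under each processing setting (y axis), with bars for the standard error and a dashed line at 0. Libraries without Xist reads in the axis labels are those under 1 CPM of Xist. Helios lies at 0.31 to 0.45 under every alternative, and the other members lie within 0.24 of 0.

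Levels of different genes were compared per length, as TPM with the union of annotated exons as length. Ikaros averaged 444 ± 22.0 TPM in CD103KO and 465 ± 25.7 TPM in WT (SD, n = 3 each), and ranked 225 from the top among 13470 tested genes. Aiolos followed at 55.0 ± 3.36 TPM in CD103KO and 54.5 ± 3.78 TPM in WT, and Pegasus at 20.0 ± 1.29 TPM in CD103KO and 20.3 ± 0.736 TPM in WT. Helios was at 2.86 ± 0.238 TPM in CD103KO and 2.23 ± 0.171 TPM in WT. Eos was at 1.99 ± 0.236 TPM in CD103KO and 2.19 ± 0.129 TPM in WT. Helios and Eos thus sat at the 28.0 and 25.8 percentile of tested genes, far below Ikaros at 98.3.

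Ikaros, Aiolos and Pegasus held the top 3 ranks in that order in all 6 libraries, with ranges that did not touch. Ikaros exceeded Aiolos 7.62- to 8.77-fold in single libraries, Aiolos exceeded Pegasus 2.45- to 3.01-fold, and Pegasus exceeded Helios 6.40- to 10.1-fold. Helios and Eos, the lowest pair, did not differ beyond their spread over the 6 libraries with this length. Their ratio in TPM was 1.15, 1.6 and 1.63 in CD103KO replicates 1, 2 and 3, against 1.00, 1.06 and 0.986 in WT replicates 1, 2 and 3. All 3 CD103KO ratios exceeded all 3 WT ratios, and the ratio contains the same Helios difference.

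Of the summed TPM of the family, Ikaros made up 84.8 ± 0.38% in CD103KO and 85.5 ± 0.112% in WT (SD, n = 3 each). Helios contributed 0.548 ± 0.0698% in CD103KO and 0.410 ± 0.0187% in WT. The sum itself was 524 ± 25.2 TPM in CD103KO and 545 ± 29.7 TPM in WT, a difference smaller than either SD. Which annotated transcripts a gene's reads came from is not resolved in gene counts. Helios has 9 annotated transcripts and an exon union of 11613 bases, so its TPM depends most on the length used. With the mean length of protein-coding transcripts Helios averaged 6.23 TPM over the 6 libraries and Eos 2.03 TPM, and their ranges, 4.98 to 7.48 TPM and 1.78 to 2.24 TPM, no longer overlapped.

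**Figure D4:**
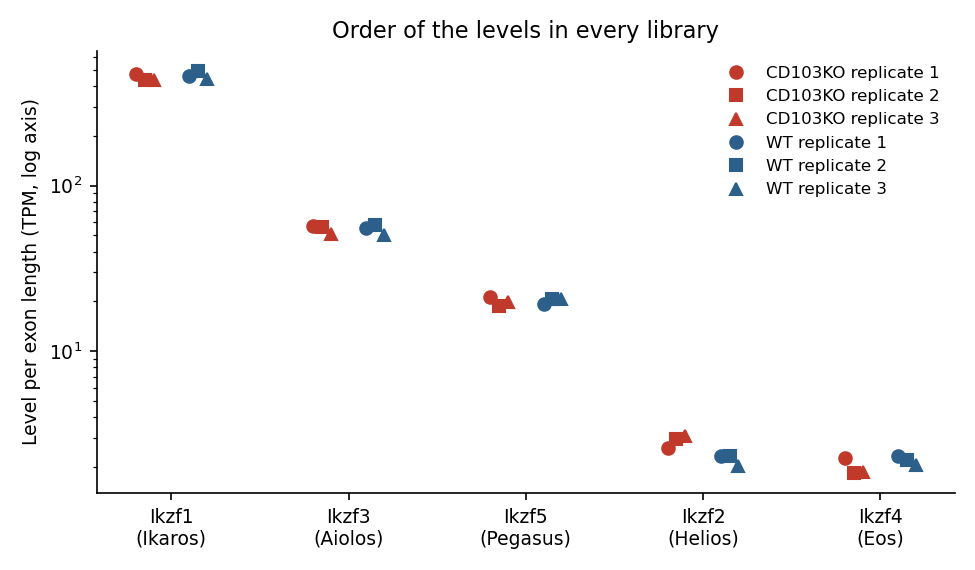
Level of each member per exon length in TPM (y axis, log scale) in every CD103KO (red) and WT (blue) library, ordered from Ikaros to Eos. Ikaros lies at 432 to 493 TPM, Aiolos at 50.4 to 57.9, Pegasus at 18.8 to 21.4, Helios at 2.03 to 3.06 and Eos at 1.84 to 2.32 TPM.

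Some genes overlap a member or resemble it in sequence. The antisense gene Gm29114 overlaps Helios and had 1 count in CD103KO replicate 1 and 0 in the other libraries. Pegasus overlaps Pstk, a selenocysteine synthesis kinase gene on the opposite strand, which held 502 to 657 counts in CD103KO and 574 to 864 counts in WT, at 6.93 to 8.95 CPM in CD103KO and 7.67 to 9.02 CPM in WT. Their annotated exons share sequence, and the strand setting of the counting is not given, so reads of Pegasus and Pstk may not be fully separated. Pegasus also has a processed pseudogene copy, Gm10356 on chromosome 3. Fractional counts of Pegasus and Gm10356 occurred in the WT libraries, where they summed to whole numbers, for example 4293.5 and 6.5 in WT replicate 2. Gm10356 had 0 counts in all CD103KO libraries and at most 0.15% of the pair's sum in WT.

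By the smallest root-mean-square difference between centred log2 CPM over the 6 libraries, the genes with profiles most like Helios among 9955 protein-coding genes of at least 1 CPM were Exoc6b, Wee1, Gemin5, Nefh and Qpct. Exoc6b, a subunit of the exocyst that tethers secretory vesicles, differed from the Helios profile by 0.045, against 0.21 for the median gene. It was at 20.4, 22.2 and 22.9 CPM in CD103KO replicates 1, 2 and 3, against 18.6, 17.5 and 17.1 CPM in WT replicates 1, 2 and 3. Wee1, a kinase that restrains entry into mitosis, differed by 0.049 and was at 3.66 to 4.26 CPM in CD103KO and 3.02 to 3.30 CPM in WT. Gemin5, an RNA-binding subunit of the SMN complex (0.051), Nefh, a neurofilament gene (0.056), and Qpct, a glutaminyl cyclase (0.062), followed. All 5 share with Helios the lowest CD103KO level in replicate 1 and groups that do not overlap, as for 14.2% of all tested genes. They were picked for likeness to Helios, so these shared traits follow from the choice. Gemin5 and Nefh lie on chromosome 11 with Itgae. Likeness over 6 libraries of which 3 differ in genotype is a description of these libraries.

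Of 18 genes of the family's corepressor complexes 17 were tested, the exception being Ctbp2 with 1 count in all, and 0 were called with edgeR, DESeq2 or limma-voom. At an unadjusted p under 0.05 edgeR gave 2 of 17, both higher in CD103KO, against 8.73% of all tested genes, and these were the NuRD ATPases Chd3 and Chd4. Chd3 was at 524, 492 and 468 CPM in CD103KO replicates 1, 2 and 3, against 422, 466 and 428 CPM in WT replicates 1, 2 and 3, with groups that did not overlap (log2 fold change 0.17, SE 0.05, adjusted p = 0.4336, edgeR). Chd4, the remodeller to which Ikaros binds, was at 793, 816 and 871 CPM in CD103KO replicates 1, 2 and 3, against 729, 727 and 787 CPM in WT replicates 1, 2 and 3. Its log2 fold change was 0.14 (SE 0.05, adjusted p = 0.4549, edgeR), and 0.07 with the Xist term. For Chd3 the log2 fold change with that term was 0.21. The groups did not overlap for Chd4 either, as for 14.2% of all tested genes, and neither gene passed over all genes. The summed level of the 18 genes was 3647 to 3715 CPM in CD103KO and 3438 to 3582 CPM in WT, and the median log2 fold change was 0.01.

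Cereblon (Crbn), the ubiquitin ligase receptor through which thalidomide analogues degrade Ikaros and Aiolos in human cells, was at 73.6 ± 6.85 CPM in CD103KO and 80.3 ± 5.06 CPM in WT (SD, n = 3 each; log2 fold change -0.13, SE 0.07, adjusted p = 0.6665, edgeR). With the Xist term the log2 fold change of Crbn was -0.21. Of the 6 genes of its ligase list, 0 were called by edgeR, DESeq2 or limma-voom, and 0 had an unadjusted p under 0.05. Rbx1, its RING subunit, was at 56.2 ± 1.62 CPM in CD103KO and 54.4 ± 0.542 CPM in WT (adjusted p = 0.7764, edgeR).

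Among 20 genes known as targets of the family, 14 were tested, and edgeR, DESeq2 and limma-voom called 0. One of the 14 had an unadjusted p under 0.05 with edgeR, against 8.73% of all tested genes. That was Il7r, the interleukin 7 receptor needed for naive T cell survival, at 283, 275 and 285 CPM in CD103KO replicates 1, 2 and 3, against 307, 312 and 294 CPM in WT replicates 1, 2 and 3. Its groups did not overlap, as for 14.2% of all tested genes. The log2 fold change, -0.11 with an SE of 0.04, did not pass (adjusted p = 0.4553, edgeR). It was -0.06 with the Xist term. Notch3, a Notch receptor gene repressed by Ikaros in thymocytes, was near the detection limit, at 0.239 ± 0.0655 CPM in CD103KO and 0.140 ± 0.00946 CPM in WT (SD, n = 3 each; adjusted p = 0.5935, edgeR). The Notch3 groups did not overlap either, with CD103KO higher. Its log2 fold change was 0.76, and 0.66 with the Xist term. Il2, which Helios represses in regulatory T cells, was not tested, with 24 counts summed over CD103KO and 24 over WT.

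Helios is also raised in T cells that met strong T cell receptor signals, so genes of that response were listed. Of 18 tested, edgeR and limma-voom called 0. With edgeR 1 had an unadjusted p under 0.05, against 8.73% of all tested genes, and DESeq2 called 1, against 0.822% of the genes it tested. In both cases it was Tnfaip3, an inhibitor of NF-kappa B signalling, at 41.1 ± 2.09 CPM in CD103KO and 51.7 ± 1.66 CPM in WT (SD, n = 3 each; log2 fold change -0.33, SE 0.05, adjusted p = 0.0724 with edgeR and 1.1e-04 with DESeq2). The Tnfaip3 groups did not overlap, with CD103KO lower, as for 7.36% of all tested genes. With the Xist term the log2 fold change of Tnfaip3 was -0.38. Nr4a1, a direct readout of receptor signalling, was at 19.7 ± 2.39 CPM in CD103KO and 19.8 ± 1.51 CPM in WT. Izumo1r, the folate receptor 4 gene, was at 42.3 ± 4.18 CPM in CD103KO and 36.2 ± 5.56 CPM in WT (log2 fold change 0.23, adjusted p = 0.6231, edgeR), and its log2 fold change was 0.03 with the Xist term. The median of the list was -0.02.

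Thymocyte and recent thymic emigrant genes gave 0 calls among 16 tested with edgeR, DESeq2 or limma-voom, and 2 at an unadjusted p under 0.05, both higher, against 8.73% of all tested genes. Cd24a, a surface protein lost as thymocytes mature, was at 2.67, 3.16 and 3.02 CPM in CD103KO replicates 1, 2 and 3, against 2.04, 1.70 and 2.15 CPM in WT replicates 1, 2 and 3. Its groups did not overlap, as for 14.2% of all tested genes, and its log2 fold change of 0.59 (SE 0.14) did not pass (adjusted p = 0.2721, edgeR). The Cd24a value was 0.45 with the Xist term. Itm2a, a membrane protein gene of maturing thymocytes, was at 54.9 ± 1.39 CPM in CD103KO and 48.4 ± 5.31 CPM in WT (log2 fold change 0.18, adjusted p = 0.5243, edgeR), and its log2 fold change was 0.01 with the Xist term. Of genes of Ly49-positive regulatory CD8 T cells, another Helios-expressing population, edgeR, DESeq2 and limma-voom called 0 of 9 tested, and 2 were higher at an unadjusted p under 0.05, against 4.53% of all tested genes. Klra3, a Ly49 receptor gene, was at 0.314 ± 0.0712 CPM in CD103KO and 0.126 ± 0.0349 CPM in WT (SD, n = 3 each; adjusted p = 0.4209, edgeR), and Il2rb, an interleukin 2 and 15 receptor chain, at 291 ± 27.5 CPM in CD103KO and 251 ± 12.3 CPM in WT (adjusted p = 0.4366, edgeR). The log2 fold change was 1.29 for Klra3 and 0.21 for Il2rb, and with the Xist term 1.81 and 0.23. The Klra3 groups did not overlap, with CD103KO higher, as for 6.82% of all tested genes, and those of Il2rb overlapped. Klra3 rested on 68 counts summed over CD103KO and 32 over WT. Of the 9 tested, 6 had positive log2 fold changes, against 6595 of all 13470 tested genes. They included Klra6, a Ly49 receptor gene (0.73, SE 0.46), and Cxcr5 (0.36, SE 0.22). Other members had negative log2 fold changes, Klra7, a Ly49 receptor gene, of -0.46 (SE 0.62) and Fasl, the Fas ligand gene, of -0.93 (SE 0.53). The median of the list was 0.09, and -0.09 with the Xist term. Its summed level, 399 to 458 CPM in CD103KO and 364 to 399.6 CPM in WT, came mostly from Il2rb and from the perforin gene Prf1, which averaged 109 CPM in both groups.

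Markers of other cells in which the family is active were also read. Those of CD4 and regulatory T cells, where Helios and Eos are known to be expressed, summed to 125 to 136 CPM in CD103KO and 112 to 123 CPM in WT. Most of this sum came from Icos, Izumo1r (42.3 CPM in CD103KO and 36.2 CPM in WT) and Tnfrsf18 (35.6 CPM in CD103KO and 36.9 CPM in WT). Of the 10 markers 7 had positive log2 fold changes (median 0.15), against 6595 of all 13470 tested genes. EdgeR, DESeq2 and limma-voom called 0 of the 10, and 0 had an unadjusted p under 0.05. Foxp3, the defining factor of regulatory T cells, was at 1.99, 1.67 and 2.33 CPM in CD103KO replicates 1, 2 and 3, against 1.62, 1.65 and 2.13 CPM in WT replicates 1, 2 and 3, and these ranges overlapped. Icos, a costimulatory receptor gene, was at 39.4 ± 2.63 CPM in CD103KO and 35.7 ± 2.7 CPM in WT (SD, n = 3 each; adjusted p = 0.641, edgeR). Cd4 was at 0.181 ± 0.0977 CPM in CD103KO and 0.348 ± 0.372 CPM in WT (SD, n = 3 each). With the Xist term the median of the list was 0.02, and the log2 fold change of Icos was 0.24, against 0.14 without the term. The part of such cells in the Helios level was not tested.

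B cells also express Ikaros and Aiolos, and their markers were the 1 list of 11 with edgeR calls. EdgeR called 3 of 16 markers, all higher in CD103KO, among them Fcer2a, the low-affinity IgE receptor (log2 fold change 2.58, SE 0.27, adjusted p = 0.005893), Cd79a, a B cell receptor component (1.74, SE 0.19, adjusted p = 0.005917), and Ms4a1, which encodes CD20 (2.28, SE 0.31, adjusted p = 0.02676). Over all tested genes 0.223% were called, 0.141% higher in CD103KO. DESeq2 called 7 of the 16, Ms4a1 among them (adjusted p = 1.08e-08, DESeq2). Limma-voom called 2, without Ms4a1 (adjusted p = 0.07548, limma-voom). The log2 fold change was positive for all 16 (median 1.48), against 6595 of all 13470 tested genes, and none of the 16 was at 0 counts in every library. For 11 of the 16 the groups did not overlap, all higher in CD103KO, against 6.82% of all tested genes. The log2 fold change was only 0.01 for Cd79b, 0.01 for Ighm, 0.02 for Bank1 and 0.05 for Pou2af1, whose groups overlapped. With the Xist term the 3 calls were lost while the log2 fold changes were 2.48 for Fcer2a, 1.63 for Cd79a and 2.10 for Ms4a1, with a list median of 1.36. Levels of these 3 genes stayed low, with Cd79a at 2.53 ± 0.493 CPM in CD103KO and 0.759 ± 0.0545 CPM in WT (SD, n = 3 each). Summed, the list was at 522 to 554 CPM in CD103KO and 497 to 536 CPM in WT, of which Ighm made up 439 to 459.6 CPM in CD103KO and 424 to 475 CPM in WT. Aiolos, at 173 to 193 CPM in CD103KO and 175 to 191 CPM in WT, overlapped between the groups.

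Of 12 tested NK and innate-like lymphocyte markers, 0 were called by edgeR, DESeq2 or limma-voom. With edgeR 1, Il2rb, was higher at an unadjusted p under 0.05, against 4.53% of all tested genes. The list summed to 744 to 769.9 CPM in CD103KO and 684 to 706 CPM in WT. Most of this sum came from Il2rb, the cytotoxic granule gene Nkg7 (296 CPM in CD103KO and 284 CPM in WT) and the CD94 receptor gene Klrd1 (116 CPM in CD103KO and 109 CPM in WT). Of the 12 tested, 7 had positive log2 fold changes, against 6595 of all 13470 tested genes. Among NK receptor and adaptor genes, Klrc1 had 0.71 (SE 0.43) and Fcer1g 0.48 (SE 0.46). Ncr1, Klrb1c, Klrk1 and Tyrobp had negative ones, of -0.03, -0.18, -0.04 and -0.31. The list median was 0.05, and -0.04 with the Xist term. The groups did not overlap for 1 of the 12, lower in CD103KO, against 7.36% of all tested genes. Klrc1, an NK receptor gene, was at 0.447 ± 0.255 CPM in CD103KO and 0.275 ± 0.0314 CPM in WT (SD, n = 3 each). Myeloid and dendritic cell markers summed to 45.4 to 46.9 CPM in CD103KO and 43.3 to 52.2 CPM in WT, with Cd14 and Siglech at 0 in all libraries, 0 of 7 tested called by edgeR, DESeq2 or limma-voom, and 0 at an unadjusted p under 0.05. The genes of smallest p there, Csf1r and Fcgr3, had log2 fold changes of -0.62 and -0.31. Of the 7 tested, 1 had a positive log2 fold change. The groups did not overlap for 1, Fcgr3, lower in CD103KO, against 7.36% of all tested genes. CD8 alpha beta T cell markers gave 0 calls among 12 with edgeR, DESeq2 or limma-voom. At an unadjusted p under 0.05 edgeR gave 1 of 12, Cd3g (log2 fold change 0.10, SE 0.04), against 8.73% of all tested genes. The Cd3g groups did not overlap, with CD103KO higher, as for 6.82% of all tested genes, and its value was 0.05 with the Xist term. Of the 12 markers 11 had positive log2 fold changes, against 6595 of all 13470 tested genes. Their median was 0.03, and -0.01 with the Xist term. Runx3 had a log2 fold change of 0.07 (SE 0.05). The part of these cells in the levels of the Ikaros family was not tested.

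**Figure D5:**
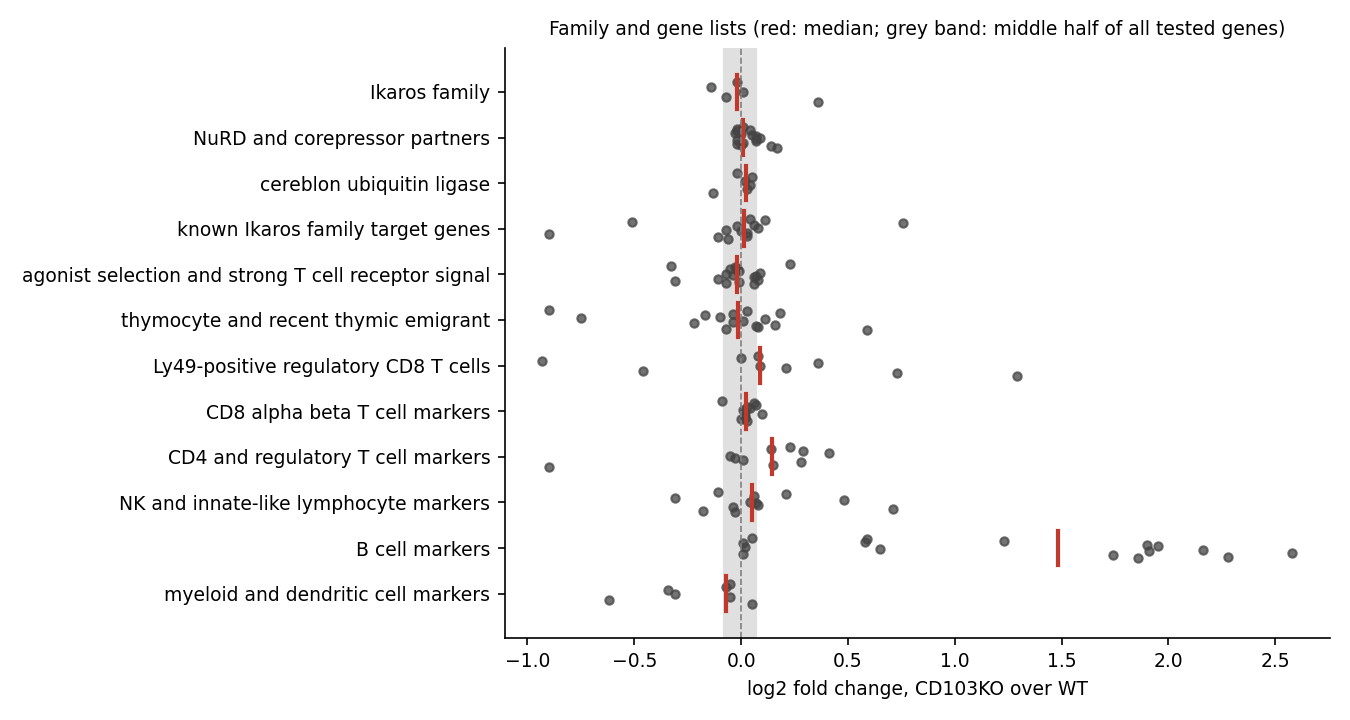
Log2 fold changes, CD103KO over WT (x axis), of the Ikaros family and of the tested members of each gene list (points), with list medians in red and the interquartile range of all tested genes as a grey band. Helios, at 0.36, is the point farthest right in the family, and the B cell markers have the highest list median, 1.48.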

How the data were processed

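RNA-seq of 3 CD103KO and 3 WT libraries was analysed from 1 table of expected counts per gene. Per the submitters' processing notes, the authors used bcl2fastq 2.20, cutadapt 1.18, STAR 2.7.0f and RSEM on GRCm38 (mm10). Per the labels' protocols the libraries came from a stranded mRNA ligation kit. Not given in the sources used here were the annotation release, the strand setting and the RSEM version. The deposited expected counts are not normalized. Rounding for the tests altered the 6.48% that held fractions.

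CD103KO was compared with WT in edgeR 4.0.16 (R 4.3.3): filterByExpr (minimum count 10), TMM, the quasi-likelihood F test on group, and Benjamini-Hochberg adjustment at 0.05 over 13470 genes. Each SE was taken as the log2 fold change over the root of F. CPM use TMM-scaled sizes, where 1 count is 0.0104 to 0.0147 CPM, and TPM use GENCODE M21 exon unions, matched by all 55450 identifiers. No library was a copy of another in its group (chi-square per degree of freedom 11.9 to 24.4). Of each of 11 lists, called members (at most 3) or otherwise the 2 of smallest p were named, with the 5 genes most like Helios, genes overlapping a member, and Itgae, Xist and Ddx3y. Cd8a, Nr4a1, Il2, Foxp3, Cd4, Tnfrsf18, Cd14, Siglech, Ighm, Cd79b, Bank1, Pou2af1, Ctbp2, Klra6, Klra7, Cxcr5, Fasl, Prf1, Nkg7, Klrd1, Ncr1, Klrb1c, Klrk1, Fcer1g and Tyrobp were named after their values were seen. Members and lists were chosen with earlier results of these data known. No pairing of the libraries by replicate number was visible in their values. Alternatives were RLE and upper-quartile factors, other filters, DESeq2 1.42.0, limma-voom (limma 3.58.1), the replicate number as a block, the Xist term (libraries above 1 CPM), only the libraries below that level, each library left out, and other gene lengths. Proteins and the promoter of Helios were not used here.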

Additional observations from a re-analysis of the deposited data

How the results depend on the processing

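The log2 fold changes of Helios, Ikaros and Eos kept their sign under all 15 alternatives, and DESeq2 was the 1 alternative that called Helios. Since the Helios groups did not overlap, its sign was bound to hold with fewer libraries. Genes called over the whole table numbered 30, against 112 with no filter on low counts, 128 with DESeq2, 15 with the Xist term and 13 with only the libraries under 1 CPM of Xist. Leaving out 1 library gave 19 (without CD103KO replicate 2) to 59 (without CD103KO replicate 1), and 52 without WT replicate 3. The B cell list had 3 calls, against 9 with no filter, 7 with DESeq2, 0 with the Xist term and 0 with only the libraries under 1 CPM of Xist, while the list median was 1.48, and 1.36 with the Xist term. The list of strong T cell receptor signals had 0 calls, against 1 with no filter, 1 with DESeq2, and 0 to 1 with 1 library left out (1 without CD103KO replicate 1). The cause of these changes was not tested. With the replicate number as a block 24 genes were called, and the number of calls in the family and in each list was the same. Deviations of same-numbered libraries correlated at -0.199, -0.00535 and -0.0299. No pairing by number was visible in these values, which cannot exclude that same-numbered libraries were handled together.

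Gene length moved levels without changing the order of mean TPM, but Helios and Eos overlapped only with the exon union and the longest transcript. With the longest transcript as length, Ikaros averaged 389 TPM, Aiolos 79.4 TPM and Eos 1.86 TPM. With the mean length of protein-coding transcripts, Ikaros averaged 657 TPM, Aiolos 71.0 TPM, Pegasus 43.2 TPM and Helios 6.23 TPM, and Helios made up 0.919% of the family in CD103KO and 0.687% in WT. Depth limits Eos most, at 289 to 475 counts per library.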
